A study of Homo sapiens with 12 samples.

Results

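The 9 genes described here encode antiviral proteins that interferon switches on: the oligoadenylate synthetase family (OAS1, OAS2, OAS3, OASL), the IFIT family (IFIT1, IFIT2, IFIT3), MX1 and ISG15. They were taken by symbol from the 23710 genes of the count files, in which all 9 have a row. The libraries came from RCC4, a line of human clear cell renal carcinoma cells, in a study of how the transcriptome changes when MESH1, the product of HDDC3, is silenced by either of 2 siRNAs. In experiment 1, 3 libraries with siMESH1-CDS stood beside 3 with the non-targeting siRNA (siNT), and in experiment 2, 3 with siMESH1-7002 stood beside 3 siNT libraries of their own. Every library, controls included, came from cells given 40 pmol of siRNA with the lipid reagent Lipofectamine RNAiMAX and collected at 72 h, in DMEM with 10% serum, and all are labelled as biological replicates of 1 cell line. No untransfected library was analysed here, so the level before transfection cannot be told apart from that of siNT cells.

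Cells answer foreign nucleic acid through sensors such as RIG-I, which drive the making of type I and type III interferons. Secreted interferon binds its receptors, and the kinases JAK1 and TYK2 then activate transcription factors of the STAT family, which join IRF9 and bind interferon-stimulated response elements in promoters. The genes switched on in this way include those below, and double-stranded RNA, siRNA duplexes among it, is known as a possible trigger of the same path.

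The siRNA target sequences are shown because both siRNAs are compared throughout and differ in sequence. Capitals mark the 7 bases that pair with the seed of the guide strand, its positions 2 to 8 counted from its 5′ end.
siMESH1-CDS: gggaaucacugACAUUGUg
siMESH1-7002: ctgaaggtctcctGCTAACTa
The 19 bases of the siMESH1-CDS target lie in the coding sequence of HDDC3 and the 21 bases of the siMESH1-7002 target in its 3′UTR (GENCODE 29), and neither whole target was found in a transcript of another gene. The siMESH1-CDS seed site was present in the 3′UTR of 2 of the 9 genes, OAS2 and OASL, beside 15.3% of 17780 genes with an annotated 3′UTR. The siMESH1-7002 seed site was present in 1 of the 9, IFIT1, beside 6.2% of those genes.

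The RefSeq promoter table (GRCh38.p14) matched 6 of the 9 genes with 9 promoter windows of 300 bases, from 250 before to 50 after the transcription start. OAS2, OASL and IFIT2 had no window in it. The windows were searched on both strands for GAAANNGAAA, the core repeat of the interferon-stimulated response element, with overlapping matches counted. It was present in 7 of the 9 windows and in 5 of the 6 genes, against 1255 of all 35116 windows (3.57%). A stretch of 30 bases from each of the 5 genes is shown, 5′ to 3′ on the strand of the gene, with the match in capitals. In IFIT1 and IFIT3 the match is on the opposite strand and so appears as its reverse complement.
OAS3: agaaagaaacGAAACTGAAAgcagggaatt
IFIT1: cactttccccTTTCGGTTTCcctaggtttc
IFIT3: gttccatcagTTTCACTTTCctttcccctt
MX1: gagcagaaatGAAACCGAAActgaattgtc
ISG15: tcgggaaaggGAAACCGAAActgaagccaa
These stretches lie at chr12:112938321-112938350 (OAS3), chr10:89392510-89392539 (IFIT1), chr10:89332468-89332497 (IFIT3), chr21:41420559-41420588 (MX1) and chr1:1013380-1013409 (ISG15), all on the plus strand of GRCh38.p14, not of the hg19 build behind the counts. Counted from its first base in the direction of the gene, the match lay 143, 103, 51 and 107 bases before the start of OAS3, IFIT1, IFIT3 and ISG15, and 11 bases after that of MX1. The OAS1 window held no match.

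Experiment 1 held 34063155 to 49134129 reads in genes per library and experiment 2 held 24787804 to 31651125. HDDC3 checked the labels: with siNT it had 292 to 438 reads in experiment 1 and 326 to 442 in experiment 2, against 0 to 11 with siMESH1-CDS (log2 fold change -5.56, SE 0.823, edgeR adjusted p = 0.00174) and 35 to 52 with siMESH1-7002 (-3.25, SE 0.129, edgeR adjusted p = 2.51e-12). Corrected for the GC content of genes, the siMESH1-CDS change of HDDC3 was -3.501 (edgeR adjusted p = 7.55e-04). Of 10 renal epithelial and carcinoma markers, 10 were over 1 CPM (read counts scaled to a common depth by TMM) in both siNT groups. With siMESH1-CDS, 7 of the 10 fell and 1 rose (median log2 change -1.78), among them KRT18, a keratin, from 77.3 to 2.76 CPM and NDUFA4L2 from 27.6 to 0.624 CPM, and with siMESH1-7002 5 fell and 2 rose (median -0.13). With the same correction 5 were called higher and 3 lower with siMESH1-CDS. The siMESH1-CDS change went from -4.81 to -2.99 for KRT18, from -5.47 to -2.11 for NDUFA4L2 and from -0.010 to 0.96 for VIM. Of all genes tested, 36.9% were called higher and 37.2% lower with siMESH1-CDS without the correction, and 26.6% and 26.7% with siMESH1-7002. The summed renal list lay between 5047 and 5312 CPM with siNT and between 4855 and 4941 with siMESH1-CDS, and between 10645 and 11048 with siNT and between 10318 and 10556 with siMESH1-7002. VIM was its largest part, at a mean of 3511 CPM with siNT and 3486 with siMESH1-CDS, and 5849 with siNT and 5147 with siMESH1-7002. The sum therefore follows VIM more than any other marker. Of 12 leukocyte markers, CD68 alone passed 1 CPM in experiment 1 and CD68 and ITGAX in experiment 2, and CD3E, MS4A1, LILRA4, CLEC4C and NKG7 had no read in any library. PTPRC, the pan-leukocyte marker, had no read in experiment 2. The summed leukocyte list moved with siMESH1-CDS, from between 46.2 and 63.5 CPM with siNT to between 1.22 and 7.62, and lay between 109 and 112 with siNT and between 140 and 150 with siMESH1-7002. The part of either list in the results below was not tested. In GENCODE 29 the exons of OAS1, MX1 and ISG15 share 92, 236 and 36 bases with antisense transcripts, and those of IFIT2 share 356 bases with another transcript of the same strand. None of these has a row in the count files, so reads from the shared bases cannot be told apart.

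With siMESH1-CDS, the synthetases OAS1 and OAS3, the GTPase MX1 and the ubiquitin-like modifier ISG15 fell, while all 3 IFIT genes rose. With siMESH1-7002, OAS1, OAS2, OAS3, MX1, ISG15 and IFIT1 fell and IFIT2 alone rose. Of the 8 genes with enough reads to test, edgeR called 3 higher and 4 lower with siMESH1-CDS, where 36.9% of 13395 genes tested were called higher and 37.2% lower. It called 1 higher and 6 lower with siMESH1-7002, where 26.6% of 13568 genes were called higher and 26.7% lower. The median log2 fold change of the 8 genes was -0.87 beside -0.047 over all genes with siMESH1-CDS, and -0.43 beside 0.0053 with siMESH1-7002. Corrected for GC content, these medians were -0.15 beside 0.14 with siMESH1-CDS and -0.36 beside 0.066 with siMESH1-7002. OAS1, OAS3, MX1 and ISG15 were called lower with both siRNAs and IFIT2 higher with both, and IFIT1 was called in opposite directions. The shares of all genes called with both siRNAs or in opposite directions were not counted. With the GC correction, OAS3 (-0.0028, edgeR adjusted p = 0.994), MX1 (-0.30, 0.669) and IFIT1 (0.35, 0.0545) were no longer called with siMESH1-CDS. Here and below a call is a Benjamini-Hochberg adjusted p under 0.05 over all genes from edgeR's quasi-likelihood test. In bulk libraries, fewer cells that express a gene and less of its RNA per cell cannot be told apart.

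The siMESH1-CDS libraries also differed from siNT along the GC content of the genes, and the GC-corrected change is given beside a result where it changed a call or moved the fold by over 1.5 times. With the genes tested split into 10 classes of equal size by exonic GC content, the median log2 fold change with siMESH1-CDS went from 1.15 in the class lowest in GC to -3.68 in the highest. With siMESH1-7002 the same medians went from 0.14 to -0.096. A correction of each library for GC content left 2 of the genes called higher and 2 lower with siMESH1-CDS, where 39.1% of all genes were then called higher and 27.7% lower. With siMESH1-7002 it left 1 higher and 7 lower, beside 38.2% and 24.3% of all genes. Whether the GC trend was made in the cells or in the libraries was not tested.

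**Figure D1:**
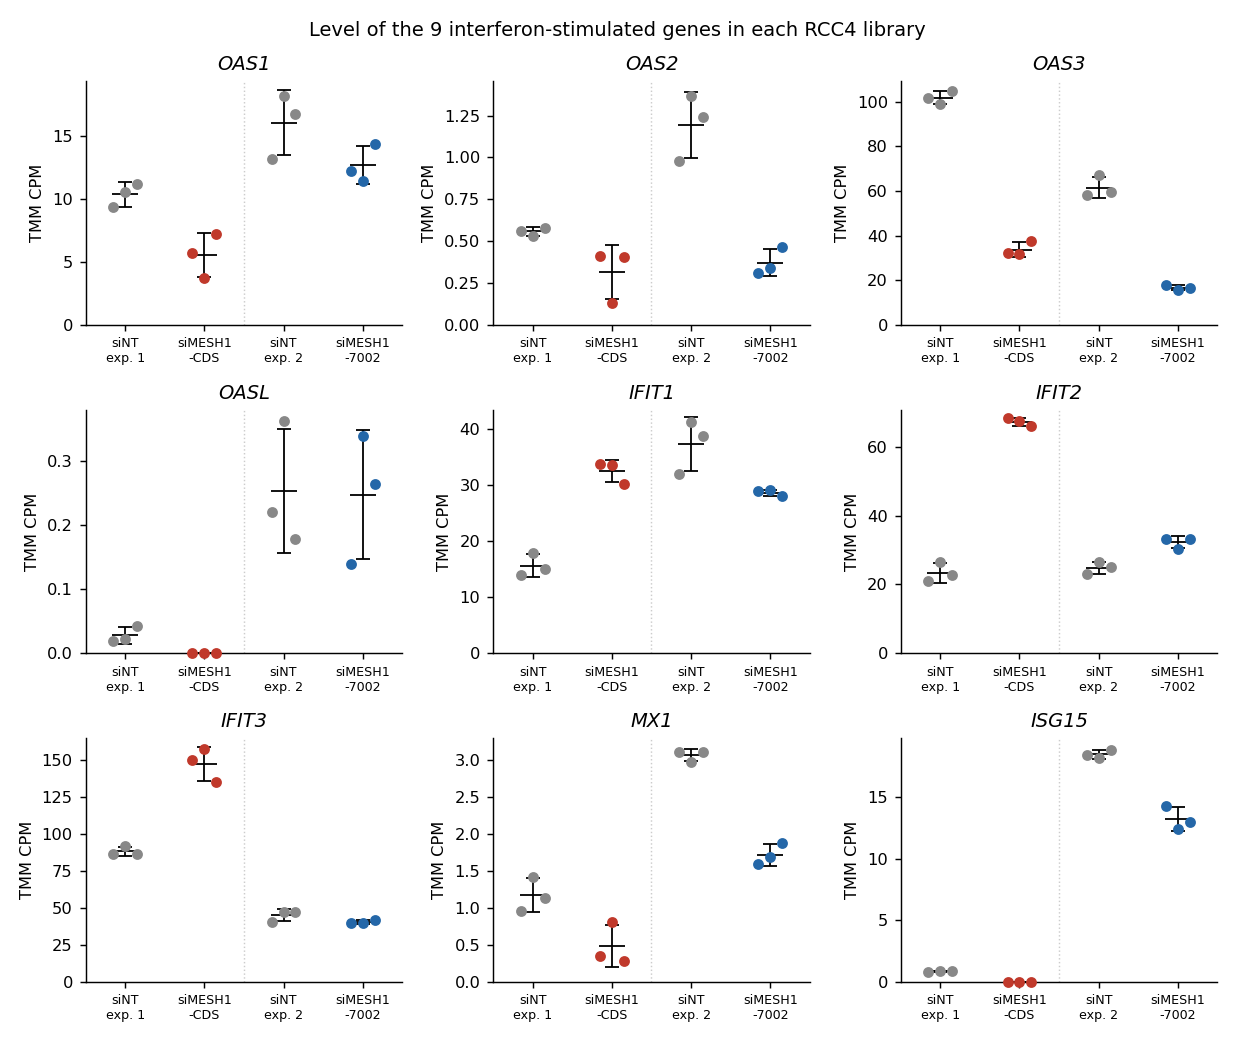
TMM-scaled CPM (linear axis from 0, scaled separately in each panel) of the 9 genes in the 12 libraries, with experiment 1 left and experiment 2 right of the dotted line. Points are libraries and bars the mean ± SD of 3; OAS3 is lower with both siRNAs, all IFIT panels are higher with siMESH1-CDS, and ISG15 has 0 reads with siMESH1-CDS.

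OAS3, the largest of the oligoadenylate synthetases, which make the short adenylate chains that switch on the nuclease RNase L, had the most reads of the family. In experiment 1 it stood at 102, 98.9 and 105 CPM in siNT replicates 1 to 3, and at 32.0, 31.6 and 37.7 CPM in the siMESH1-CDS replicates. The libraries of experiment 2 stood at 58.2, 67.0 and 59.5 CPM with siNT and at 17.9, 15.8 and 16.3 CPM with siMESH1-7002. All siMESH1 libraries were below all siNT libraries of their experiment, with no overlap. The log2 fold change was -1.59 with siMESH1-CDS (SE 0.109, edgeR adjusted p = 2.57e-04), or 33.2% of the siNT level, and -1.88 with siMESH1-7002 (SE 0.0717, edgeR adjusted p = 1.63e-12), or 27.1%. The exons of OAS3 have a GC content of 54.7%, and the median of its GC class was -1.74 with siMESH1-CDS and -0.030 with siMESH1-7002. The GC correction ended the siMESH1-CDS call (-0.0028, SE 0.269, edgeR adjusted p = 0.994) and left -1.78 with siMESH1-7002 (edgeR adjusted p = 7.97e-17).

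OAS1, a smaller enzyme of the family, fell less. It measured 9.30, 10.5 and 11.2 CPM in the siNT libraries of experiment 1 and 5.69, 3.69 and 7.22 CPM with siMESH1-CDS. In experiment 2 it measured 13.1, 18.1 and 16.7 CPM with siNT and 12.2, 11.4 and 14.3 CPM with siMESH1-7002. The groups were apart in experiment 1 and overlapped in experiment 2, where siMESH1-7002 replicate 3 lay above siNT replicate 1. The change was -0.90 on the log2 scale with siMESH1-CDS (SE 0.280, edgeR adjusted p = 0.0267) and -0.33 with siMESH1-7002 (SE 0.111, edgeR adjusted p = 0.0181), or 53.6% and 79.4% of siNT. The siMESH1-CDS call was lost without any 1 of the 3 siNT libraries or without siMESH1-CDS replicate 1 (edgeR adjusted p from 0.0590 to 0.0888), and the siMESH1-7002 call without siNT replicate 2 (0.122) or siMESH1-7002 replicate 1 (0.0599) or 2 (0.0923). With the GC correction it stayed called, at -0.70 and -0.26. Without the correction, the median of its GC class was -0.12 with siMESH1-CDS.

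OAS2, whose enzyme carries a pair of synthetase units, was rare, with 24 to 30 reads per siNT library in experiment 1 and 31 to 35 in experiment 2. Its siNT libraries gave 0.564, 0.531 and 0.580 CPM and the siMESH1-CDS libraries 0.411, 0.130 and 0.403 CPM. In experiment 2 the siNT libraries gave 0.977, 1.37 and 1.24 CPM and the siMESH1-7002 libraries 0.312, 0.338 and 0.462 CPM. Neither pair of groups overlapped, and siMESH1-CDS replicate 2 was the lowest library of all. With siMESH1-7002, OAS2 fell by 1.66 on the log2 scale (SE 0.273, edgeR adjusted p = 7.69e-05), to 31.7% of siNT, and the GC-corrected change was -1.62. With siMESH1-CDS the log2 change was -0.84 (SE 0.436, edgeR adjusted p = 0.124), which did not pass the test, nor did the GC-corrected change of -1.05 (0.0613), while a fit of all 4 groups together called it lower (-1.01, 0.0175).

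OASL, a family member known to lack the synthetase activity and to bind RIG-I, was too low to test in either experiment. In experiment 1 it had 1, 1 and 2 reads in the siNT libraries and 0 in each siMESH1-CDS library. It had 7, 9 and 5 reads with siNT in experiment 2 and 4, 10 and 8 with siMESH1-7002. A count of 0 allows up to 3 reads, so no difference was detectable at this depth with siMESH1-CDS.

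The IFIT genes encode proteins with tetratricopeptide repeats, known to bind foreign RNA and hold back its translation. With siMESH1-CDS all 3 rose, and with siMESH1-7002 they split: IFIT2 rose, IFIT1 fell and IFIT3 did not pass the test. All 3 have low exonic GC content, 41.9% in IFIT1, 42.1% in IFIT2 and 44.2% in IFIT3. They lie together on chromosome 10 and within the span of LIPA on the opposite strand, with which they share 0 exonic bases in GENCODE 29.

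IFIT2, an IFIT protein also known to act in cell death, went from 20.9, 26.5 and 22.7 CPM with siNT to 68.3, 67.4 and 66.02 CPM with siMESH1-CDS. Experiment 2 went from 23.0, 26.5 and 25.01 CPM to 33.1, 30.2 and 33.3 CPM with siMESH1-7002. Each siMESH1 library was above each siNT library of its experiment. It rose by 1.53 on the log2 scale with siMESH1-CDS (SE 0.125, edgeR adjusted p = 3.52e-04), 2.88-fold, and by 0.38 with siMESH1-7002 (SE 0.0697, edgeR adjusted p = 2.26e-04), 1.30-fold. Beside these uncorrected changes, the medians of its GC class were 0.85 and 0.060. IFIT2 remained called with the GC correction, at 0.83 (edgeR adjusted p = 0.00217) and 0.37 (8.44e-06).

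IFIT1, which binds RNA whose cap lacks the methyl mark of the host, stood at 13.98, 17.9 and 15.02 CPM with siNT in experiment 1 and at 33.8, 33.6 and 30.2 CPM with siMESH1-CDS. In experiment 2 it stood at 32.0, 41.2 and 38.7 CPM with siNT and at 28.9, 29.1 and 28.1 CPM with siMESH1-7002. The groups were apart in both experiments, in opposite directions. The log2 change was 1.06 with siMESH1-CDS (SE 0.149, edgeR adjusted p = 0.00148), 2.08-fold, and -0.38 with siMESH1-7002 (SE 0.0797, edgeR adjusted p = 7.92e-04), 77.1% of siNT. The GC correction ended the siMESH1-CDS call (0.35, edgeR adjusted p = 0.0545) and left -0.38 with siMESH1-7002 (1.70e-05).

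IFIT3, a partner that stabilises IFIT1 on RNA, had the most reads of the 3. In experiment 1 it read 86.7, 91.7 and 86.4 CPM with siNT and 150, 157 and 135 CPM with siMESH1-CDS. Experiment 2 read 40.3, 47.4 and 47.0 CPM with siNT and 39.5, 39.4 and 41.8 CPM with siMESH1-7002. The groups were apart in experiment 1 and overlapped in experiment 2, where siNT replicate 1 lay below siMESH1-7002 replicate 3. IFIT3 rose by 0.74 on the log2 scale with siMESH1-CDS (SE 0.0921, edgeR adjusted p = 9.89e-04), where the uncorrected median of its GC class was 0.62. With the GC correction the siMESH1-CDS change was 0.21 (edgeR adjusted p = 0.00933), beside a corrected median of 0.14 over all genes. With siMESH1-7002 the change was -0.15 (SE 0.0669, edgeR adjusted p = 0.0616), and it was called lower with the GC correction (-0.13, 0.0272) or without siNT replicate 1 (-0.23, 0.00431).

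MX1, a dynamin-like GTPase that traps viral nucleocapsids, had 51 to 64 reads per siNT library in experiment 1 and 74 to 99 in experiment 2. It gave 0.958, 1.42 and 1.14 CPM with siNT and 0.348, 0.806 and 0.288 CPM with siMESH1-CDS. In experiment 2 it gave 3.12, 2.97 and 3.12 CPM with siNT and 1.59, 1.69 and 1.88 CPM with siMESH1-7002. All siMESH1 libraries were below all siNT libraries in both experiments, with siMESH1-CDS replicate 2 above the other two of its group. MX1 fell by 1.26 on the log2 scale with siMESH1-CDS (SE 0.434, edgeR adjusted p = 0.0377) and by 0.83 with siMESH1-7002 (SE 0.147, edgeR adjusted p = 1.51e-04). The siMESH1-CDS call was lost with the GC correction (-0.30, edgeR adjusted p = 0.669), without any 1 siNT library, and without siMESH1-CDS replicate 1 or 3 (0.0600 to 0.116), while siMESH1-7002 gave -0.74 with the GC correction (1.67e-04).

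ISG15, a ubiquitin-like protein that is coupled to others or secreted, had 43, 39 and 42 reads in the siNT libraries of experiment 1 and 0 in each of the siMESH1-CDS libraries. Its siNT level there was 0.858 ± 0.0475 CPM (SD, n = 3), at least 29.97-fold above the level that a floor of 3 reads over the whole siMESH1-CDS group allows (edgeR adjusted p = 8.99e-04). In experiment 2 it measured 18.4, 18.2 and 18.9 CPM with siNT and 14.3, 12.4 and 13 CPM with siMESH1-7002, with no overlap. The change with siMESH1-7002 was -0.48 on the log2 scale (SE 0.0756, edgeR adjusted p = 4.59e-05), 71.5% of siNT, and -0.34 with the GC correction (4.00e-04). ISG15 has the highest GC content of the 9 genes, 64.0%, and falls in the GC class whose median was -3.68 with siMESH1-CDS. With that siRNA ISG15 stayed called with the GC correction (edgeR adjusted p = 0.0114) and was not called when the replicate block was added to it (0.0868).

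**Figure D2:**
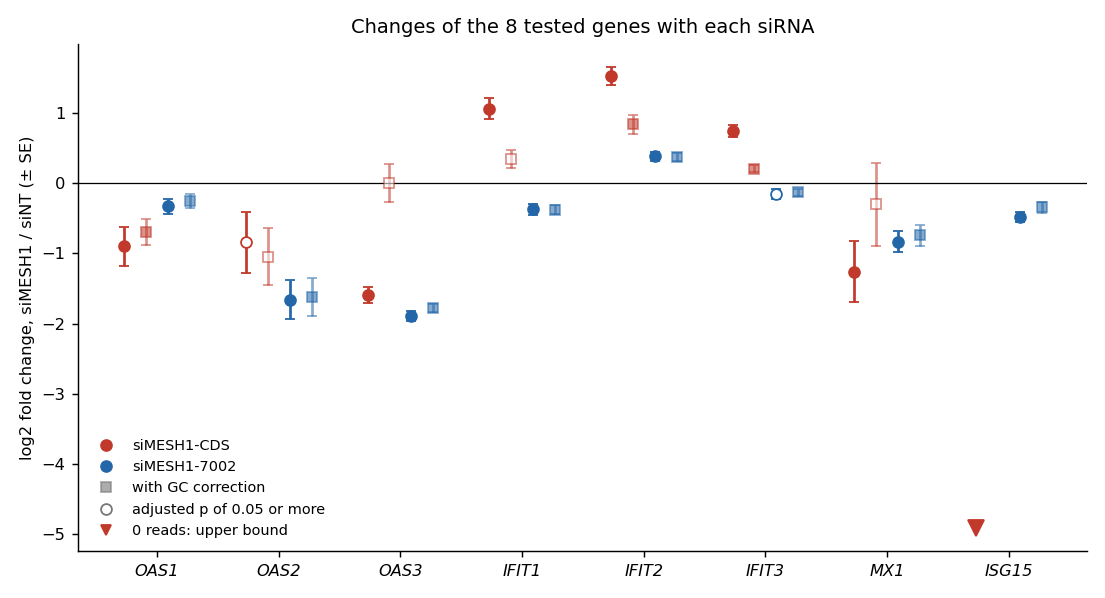
Log2 fold change of siMESH1 over siNT (vertical axis, ± SE from edgeR, 3 libraries against 3) of the 8 tested genes with siMESH1-CDS (red) and siMESH1-7002 (blue), as fitted (circles) and with the GC correction (squares), open where the adjusted p was 0.05 or more. The red triangle is the upper bound of -4.91 for ISG15; OAS3 with siMESH1-CDS moves from -1.59 to -0.0028 with the correction, and all blue values keep their sign.

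All 8 tested genes had groups without overlap in experiment 1, as did 82.7% of all genes tested, and 6 of 8 in experiment 2, beside 59.5%. In experiment 1, lane 4 held siNT replicate 1 with siMESH1-CDS replicate 3, and lane 6 held siNT replicate 3 with siMESH1-CDS replicate 1, so each gave 1 ratio within the lane. The log2 ratios were -1.43 and -1.71 for OAS3, -0.36 and -0.98 for OAS1, -0.48 and -0.50 for OAS2 and -1.74 and -1.71 for MX1. The IFIT genes gave 1.11 and 1.17 (IFIT1), 1.66 and 1.59 (IFIT2) and 0.64 and 0.80 (IFIT3). With lane as a term in the fit, the OAS1 change was -0.67 and no longer called (edgeR adjusted p = 0.112). Experiment 2 ran in 1 lane.

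**Figure D3:**
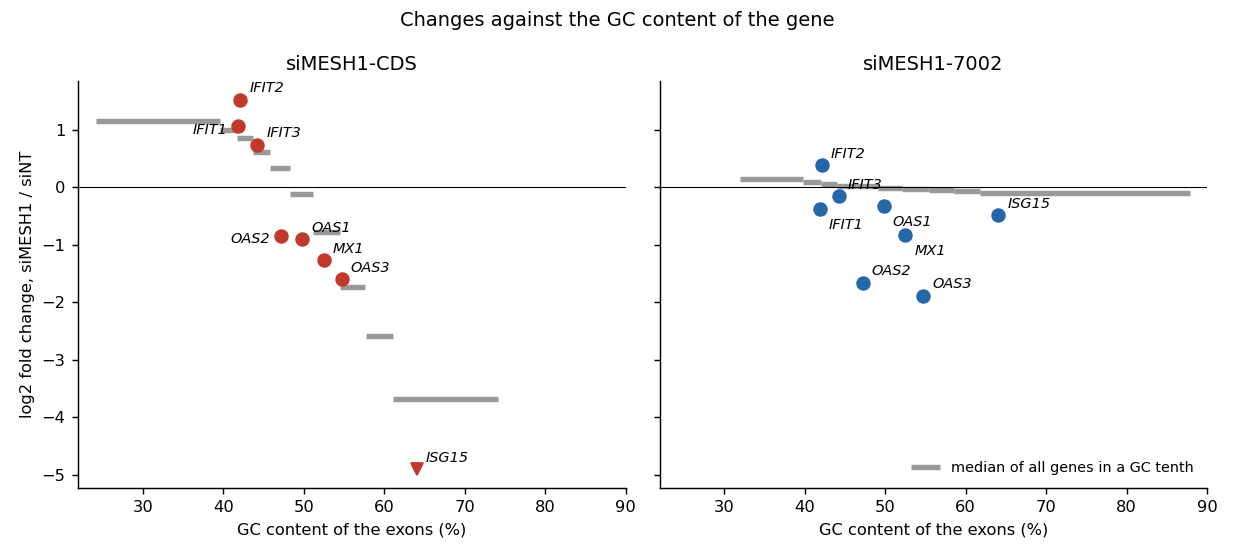
Log2 fold change of siMESH1 over siNT (vertical axis) against exonic GC content in percent (horizontal axis) for the 8 tested genes (points, with a triangle at the upper bound for ISG15), with siMESH1-CDS left and siMESH1-7002 right. Grey bars are the medians of all genes in 10 GC classes, which run from 1.15 to -3.68 on the left and from 0.14 to -0.096 on the right; OAS2 and OAS3 lie farthest below the bars on the right.

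A test of the difference between the siRNA effects, in 1 fit of all 12 libraries, asked which of the genes responded unequally. It called 4 of the 8 genes, beside 69.7% of 14154 genes. The median difference over all genes was -0.24, and 0.037 with the GC correction. All 12 libraries were scaled together, so these differences need not equal those between the separate fits above. The siMESH1-CDS effect was above that of siMESH1-7002 by 1.29 on the log2 scale for IFIT1 (SE 0.170, edgeR adjusted p = 1.00e-04), by 1.00 for IFIT2 (SE 0.145, 1.80e-04) and by 0.75 for IFIT3 (SE 0.123, 3.95e-04). With the GC correction these differences were 0.67 (edgeR adjusted p = 0.00384), 0.40 (0.0494) and 0.29 (0.00869). For ISG15 it was below (edgeR adjusted p = 2.39e-06), and no size is given because siMESH1-CDS had 0 reads. OAS3 was not called, with a difference of 0.14 (SE 0.137, edgeR adjusted p = 0.365), and it was called with the GC correction (1.82, 5.10e-04). The differences of OAS1 (-0.71, SE 0.310, edgeR adjusted p = 0.0613), OAS2 (0.67, SE 0.483, 0.237) and MX1 (-0.56, SE 0.402, 0.233) were not called either. Without siMESH1-CDS replicate 3 the OAS1 difference was called (-0.90, edgeR adjusted p = 0.00752), as were those of OAS2 (1.05, 0.0249) and MX1 (-1.19, 0.00592) without siMESH1-CDS replicate 2. The siRNA and the experiment cannot be told apart in this test.

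The levels of the genes in control cells were set side by side per kb of exon, on a TMM scale over all 12 libraries. IFIT3 was highest with siNT in experiment 1 (36.3 ± 1.16 CPM per kb, SD, n = 3), followed by OAS3 (14.05 ± 0.467), IFIT2 (6.18 ± 0.756), IFIT1 (3.67 ± 0.473) and OAS1 (2.72 ± 0.263). ISG15 (0.989 ± 0.0588), MX1 (0.314 ± 0.0619), OAS2 (0.0970 ± 0.00463) and OASL (0.0093 ± 0.0044) lay below, and no neighbours in that order overlapped. In the siNT libraries of experiment 2, ISG15 was highest (19.2 ± 0.419), above IFIT3 (16.6 ± 1.52), IFIT1 (7.90 ± 1.03), OAS3 (7.65 ± 0.587), IFIT2 (5.92 ± 0.429), OAS1 (3.80 ± 0.615), MX1 (0.743 ± 0.0212), OAS2 (0.187 ± 0.0313) and OASL (0.0757 ± 0.0287). Here IFIT1 and OAS3 overlapped. The place of ISG15 thus differed between control cells given the same siRNA, while experiment, lane and read counting differed with it and cannot be told apart. These levels were not corrected for GC content, which is highest in ISG15 (64.0%), and its part in the order was not tested. Large differences were not confined to ISG15. Mean siNT levels in experiments 1 and 2, here scaled within each experiment and not per kb, were 1.01 and 27.5 CPM for IRF7, and 27.6 and 1002 CPM for NDUFA4L2. Of the genes ordered here, IFIT3 and OAS3 were lower in experiment 2. The IFIT2 libraries overlapped, at 5.50 to 6.99 CPM per kb in experiment 1 and 5.46 to 6.31 in experiment 2.

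**Figure D4:**
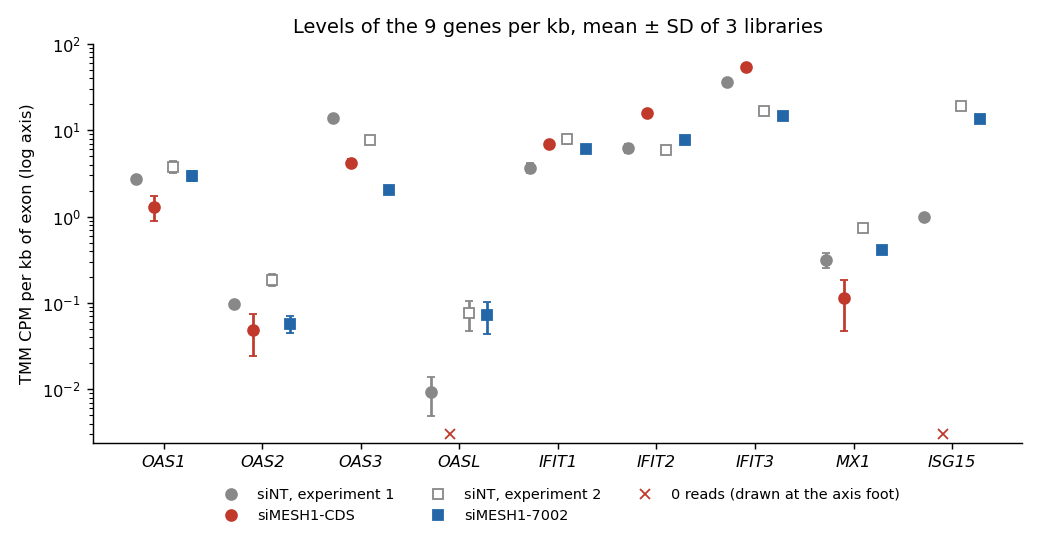
Mean TMM CPM per kb of exon (log axis, bars SD of 3 libraries) of the 9 genes in the siNT and siMESH1 groups of both experiments, with crosses at the foot of the axis for 0 reads. IFIT3 is highest in siNT cells of experiment 1 and ISG15 in those of experiment 2.

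With siMESH1-CDS the order per kb was IFIT3 (54.3 ± 3.95), IFIT2 (15.9 ± 0.236), IFIT1 (6.86 ± 0.398), OAS3 (4.18 ± 0.438), OAS1 (1.31 ± 0.424), MX1 (0.115 ± 0.0676) and OAS2 (0.0490 ± 0.0250), with OASL and ISG15 at 0. With siMESH1-7002 it was IFIT3 (14.8 ± 0.555), ISG15 (13.7 ± 0.974), IFIT2 (7.63 ± 0.419), IFIT1 (6.04 ± 0.0949), OAS1 (2.98 ± 0.367), OAS3 (2.06 ± 0.130), MX1 (0.414 ± 0.0367), OASL (0.0734 ± 0.0300) and OAS2 (0.0577 ± 0.0127). OAS3 thus stood below OAS1 with siMESH1-7002 and above it in every other group. With siMESH1-7002, IFIT3 overlapped ISG15 and OASL overlapped OAS2.

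The rest of the pathway was followed in 7 lists of 140 other genes. Over all genes, 36.9% were called higher and 37.2% lower with siMESH1-CDS, and 26.6% and 26.7% with siMESH1-7002. With the GC correction these shares were 39.1% and 27.7%, and 38.2% and 24.3%. The list counts below are to be read beside these shares, and GC-corrected changes beside all-gene medians of 0.14 with siMESH1-CDS and 0.066 with siMESH1-7002. Of the ligands, 18 of 21 interferon genes had no read in experiment 1 and 20 of 21 had none in experiment 2. IFNB1, the interferon first made after RNA sensing, had a mean of 0.0074 CPM in siNT cells of experiment 1 and no read elsewhere. Interferon epsilon (IFNE), known from epithelia, was the only ligand with enough reads to test. It went from 0.342 ± 0.0934 to 0.879 ± 0.385 CPM with siMESH1-CDS (log2 fold change 1.36, SE 0.419, edgeR adjusted p = 0.0261) and from 0.190 ± 0.0291 to 0.427 ± 0.0699 CPM with siMESH1-7002 (1.16, SE 0.386, 0.0176). The siMESH1-CDS call was lost with the GC correction (0.38, at a GC content of 35.5%), without any 1 siNT library and without siMESH1-CDS replicate 1 or 2 (edgeR adjusted p from 0.0545 to 0.0916). The siMESH1-7002 call was lost without siNT replicate 1 or siMESH1-7002 replicate 2 or 3 (0.0572 to 0.0689) and with DESeq2 (0.128).

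Of the 9 receptor and kinase genes tested, 6 rose and 2 fell with siMESH1-CDS, and 3 rose and 1 fell with siMESH1-7002. IFNAR1, a chain of the type I interferon receptor, went from 86.0 ± 0.758 to 173 ± 33.3 CPM with siMESH1-CDS (1.01, SE 0.149, edgeR adjusted p = 0.00172) and from 82.2 ± 6.999 to 64.1 ± 2.64 CPM with siMESH1-7002 (-0.36, SE 0.0617, 1.21e-04). The kinase JAK1 rose by 0.94 (SE 0.107, edgeR adjusted p = 7.48e-04) with siMESH1-CDS and changed by 0.095 (SE 0.0456, 0.0913) with siMESH1-7002, and IFNGR2, a chain of the type II receptor, by 0.90 (0.00170) and 0.10 (0.0944). With the GC correction the siMESH1-CDS change was 0.37 for IFNAR1 (edgeR adjusted p = 0.00330) and 1.80 for IFNGR2 (9.12e-05), and JAK1 (0.14, 0.00185) and IFNGR2 (0.19, 1.58e-04) were called higher with siMESH1-7002. With the same correction, 6 of the 9 were called higher and 1 lower with each siRNA.

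Of 16 sensor and adaptor genes tested, 6 rose and 6 fell with siMESH1-CDS, and 4 rose and 5 fell with siMESH1-7002. DDX58, which encodes RIG-I, went from 26.7 ± 0.470 to 132 ± 30 CPM with siMESH1-CDS (2.30, SE 0.183, edgeR adjusted p = 3.30e-04) and from 23.8 ± 2.95 to 23.3 ± 0.437 CPM with siMESH1-7002 (-0.032, SE 0.0809, 0.761). IFIH1, which encodes the sensor of long duplexes MDA5, rose by 0.59 (SE 0.181, edgeR adjusted p = 0.0259) with siMESH1-CDS and stood at -0.12 with siMESH1-7002 (0.177). EIF2AK2, the kinase PKR that halts translation on double-stranded RNA, rose by 1.21 with siMESH1-CDS (SE 0.179, edgeR adjusted p = 0.00176) and fell by 0.35 with siMESH1-7002 (SE 0.0555, 4.99e-05). The RNA editor ADAR and the adaptor MAVS, the best expressed of the list, were not called with either siRNA (edgeR adjusted p from 0.199 to 0.816). With the GC correction the siMESH1-CDS change was 1.46 for DDX58 (edgeR adjusted p = 1.87e-05) and 0.34 for EIF2AK2 (0.00278), and MAVS was called higher with both siRNAs (0.44, 0.00168, and 0.074, 0.0313). The corrected medians over all genes were 0.14 with siMESH1-CDS and 0.066 with siMESH1-7002, so MAVS lay near the latter. The corrected list gave 8 higher and 4 lower with siMESH1-CDS, and IFIH1 was no longer called (-0.16, edgeR adjusted p = 0.244), as it was not without any 1 siNT library (0.0710 to 0.0888).

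Among 7 STAT and IRF genes, 4 fell and the other 3 were not called with siMESH1-CDS, and 2 rose and 2 fell with siMESH1-7002. STAT2, a factor that interferon receptors activate, was at 0.67 (SE 0.285, edgeR adjusted p = 0.0747) with siMESH1-CDS and rose by 0.16 (SE 0.0475, 0.00922) with siMESH1-7002, a call lost without siMESH1-7002 replicate 3 (0.0794). With siMESH1-CDS, STAT2 was called higher with the GC correction (1.26, edgeR adjusted p = 2.92e-04) and with lane as a term (0.94, 0.00283). IRF9, which binds the response elements with STAT2, fell by 1.12 (SE 0.218, edgeR adjusted p = 0.00468) with siMESH1-CDS and was at -0.0012 (0.989) with siMESH1-7002, and its siMESH1-CDS change turned to 0.87 (0.0293) with the GC correction, which also called it higher with siMESH1-7002 (0.12, 0.0459). IRF7, which amplifies interferon output, had 0 reads in every siMESH1-CDS library and was at least 35.3-fold lower than with siNT (edgeR adjusted p = 0.00215, 3 reads over the group as the floor). That call was lost with the GC correction and the replicate block together (edgeR adjusted p = 0.0906). With siMESH1-7002 IRF7 stood at 0.13 (SE 0.0816, edgeR adjusted p = 0.201), and it was called higher with the GC correction (0.29, 4.86e-04). IRF1 was at -1.505 (SE 0.592, edgeR adjusted p = 0.0579) with siMESH1-CDS and fell by 0.52 (SE 0.0578, 1.01e-06) with siMESH1-7002. The siMESH1-CDS change of IRF1 was called with DESeq2 (-1.57, adjusted p = 0.0110), with lane as a term (-1.19, edgeR adjusted p = 0.00623) and in the fit of all 4 groups (-1.66, 0.00627), and it was -0.22 with the GC correction (0.517). The median GC content of this list was 56.1%, and with the GC correction 2 were called higher and 2 lower with siMESH1-CDS.

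**Figure D5:**
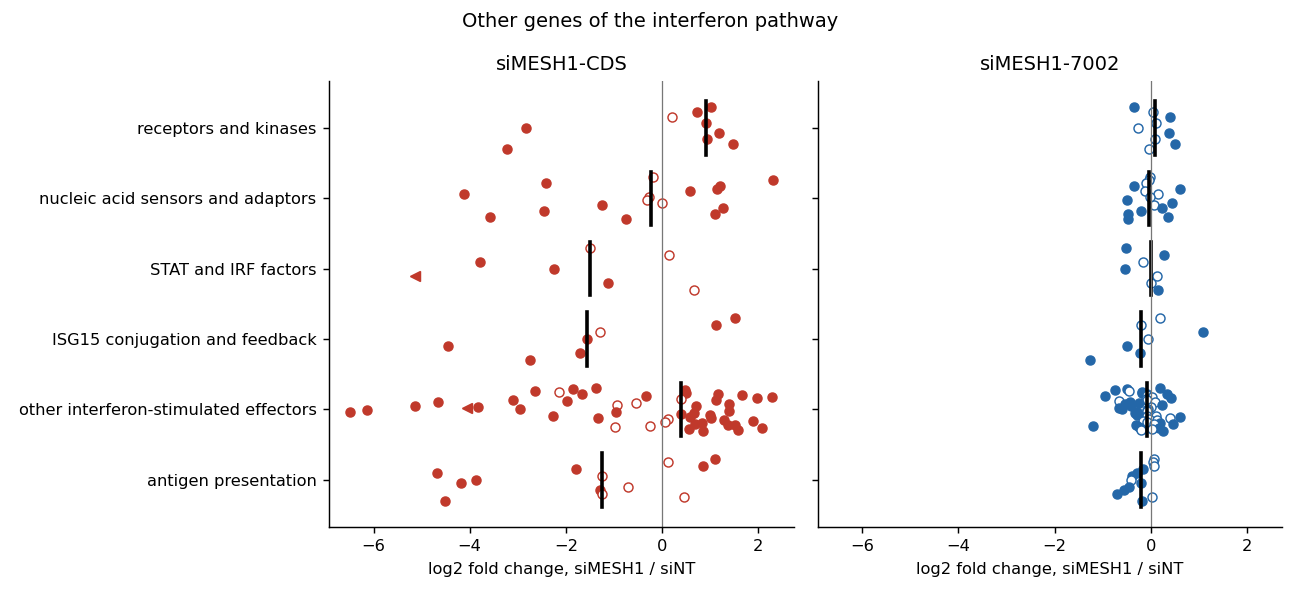
Log2 fold change of siMESH1 over siNT (horizontal axis) of the tested genes of 6 pathway lists (rows), with siMESH1-CDS left and siMESH1-7002 right; filled points passed the edgeR test, triangles are upper bounds for genes with 0 reads and black bars are list medians. The points spread wider with siMESH1-CDS, where receptors and kinases have a median of 0.90 and the STAT and IRF factors one of -1.505. With the GC correction, which is not drawn, these 2 medians were 0.39 and -0.045.

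The enzymes that couple ISG15 to proteins, with feedback inhibitors of the pathway, formed a list of 7 genes, of which 2 rose and 4 fell with siMESH1-CDS and 1 rose and 3 fell with siMESH1-7002. Corrected for GC content, 4 were called higher and 2 lower with siMESH1-CDS, with a median of 0.70 in place of -1.55. The corrected counts with siMESH1-7002 were 1 higher and 3 lower. UBA7, the activating enzyme for ISG15, went from 17.8 ± 1.12 to 0.805 ± 1.03 CPM with siMESH1-CDS (-4.46, SE 1.07, edgeR adjusted p = 0.0106) and from 36.9 ± 2.10 to 26.2 ± 1.64 CPM with siMESH1-7002 (-0.50, SE 0.0675, 1.04e-05). UBE2L6, the conjugating enzyme, fell by 1.71 (edgeR adjusted p = 0.00114) and 0.23 (8.11e-04), and USP18, the protease that removes ISG15, by 2.75 (0.0112) and 1.26 (6.67e-05). HERC5, the ligase, rose by 1.52 with siMESH1-CDS (SE 0.232, edgeR adjusted p = 0.00195) and stood at 0.18 with siMESH1-7002 (0.389). SOCS3, an inhibitor of JAK kinases, fell by 1.55 (edgeR adjusted p = 6.24e-04) with siMESH1-CDS and stood at -0.054 (0.432) with siMESH1-7002. With the GC correction the siMESH1-CDS change was -2.35 for UBA7 (edgeR adjusted p = 0.00767) and 0.70 for HERC5 (0.00431), UBE2L6 (0.17, edgeR adjusted p = 0.447) was no longer called with siMESH1-CDS and SOCS3 was called higher (2.15, 0.00701).

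Other interferon-stimulated effectors were the longest list, with 25 of 50 tested genes higher and 17 lower with siMESH1-CDS, and 9 of 49 higher and 18 lower with siMESH1-7002. RSAD2, which encodes viperin, rose by 1.01 (SE 0.212, edgeR adjusted p = 0.00632) with siMESH1-CDS, from 0.484 ± 0.0126 to 0.977 ± 0.0814 CPM, and was at 0.39 (SE 0.339, 0.345) with siMESH1-7002. The siMESH1-CDS call was lost with lane as a term (edgeR adjusted p = 0.108), in the fit of all 4 groups (0.0620) and with the GC correction and the replicate block together (0.58, 0.149). MX2, the relative of MX1, was too low to test. LGALS3BP and APOL1, the best expressed of the list, fell by 2.95 (edgeR adjusted p = 0.0122) and 1.86 (0.00275) with siMESH1-CDS, and APOL1 fell by 0.50 (1.28e-08) with siMESH1-7002, where LGALS3BP stood at -0.060 (0.266). The siMESH1-CDS change of LGALS3BP was 0.19 and not called with the GC correction (edgeR adjusted p = 0.552), and that of APOL1 was -1.18 (3.86e-04). Of 13 antigen presentation genes tested, 2 rose and 6 fell with siMESH1-CDS, and 8 fell with siMESH1-7002. B2M, the light chain of class I molecules, rose by 1.10 (SE 0.163, edgeR adjusted p = 0.00178) with siMESH1-CDS and was at 0.076 (0.205) with siMESH1-7002, and the peptidase ERAP1 was at 0.12 (0.355) and 0.040 (0.537). The GC-corrected siMESH1-CDS change was 0.28 for B2M (edgeR adjusted p = 0.00358), and ERAP1 was called lower (-0.53, 1.15e-04). Over all 7 lists, 42 of 103 tested genes were higher and 39 lower with siMESH1-CDS, beside 36.9% and 37.2% of all genes. Their median was -0.19 beside -0.047 over all genes. With siMESH1-7002, 20 of 102 were higher and 37 lower, beside 26.6% and 26.7%, with a median of -0.082 beside 0.0053. The GC correction gave 47 higher and 32 lower with siMESH1-CDS (median 0.20), beside 39.1% and 27.7% of all genes. With siMESH1-7002 it gave 29 higher and 33 lower (median -0.033), beside 38.2% and 24.3%.

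The genes most like the 9 across the 12 libraries were sought by the root mean square difference between each gene's centred log2 CPM and the median centred profile of the 8 tested genes. They were AIFM1 (0.137), HIP1 (0.148), ALDH7A1 (0.157), AGPAT3 (0.158) and TRAF3 (0.166). The 8 genes themselves lay 0.349 (OAS1) to 2.76 (ISG15) from that profile, farther than any of these 5, so their median describes none of them closely.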

How the data were processed

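RNA-seq libraries (Illumina TruSeq Stranded mRNA, HiSeq, single-end reads) were deposited by the authors as raw counts of reads per gene symbol. The submitters' processing notes name FastQC, HISAT2, HTSeq, DESeq2 and hg19; the strand setting of the counting is not given in the sources used here. A pair of deposited tables of the authors' own fold changes and p-values was not used. Rows of reads outside genes entered neither library sizes nor tests, and the no-feature row held 18.0% to 24.7% of the first experiment's reads and 14.3% to 17.3% of the second's.

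Counts were tested with edgeR 4.0.16 (quasi-likelihood F test, TMM, filterByExpr, Benjamini-Hochberg adjustment over all genes, threshold 0.05), 3 libraries against 3 within each experiment, and the difference between effects in a fit of all 12. A single value permuted exactly over 3 against 3 cannot go below p = 0.1 (two-sided), so no such test was run. GC content and exon length came from GENCODE 29 by symbol (21257 of 23710 symbols matched by name and 1060 by synonym), and the GC correction used per-library lowess offsets (span 0.3). Fits were tested on simulated data. Alternatives were DESeq2 1.42.0, limma 3.58.1 (voom with group weights), other scalings, filters and thresholds, replicate and lane terms, and each library left out. Each edgeR SE comes from the quasi-likelihood test and includes the spread between libraries. A floor is 3 reads and covers counting error only.

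The members, gene lists and tests were chosen with earlier results of these data known, and the motif after the promoter sequences were seen. Named are the 9 genes, 14 others by role (1 gene that the rule names is not reported here, nor counted in its list), the 2 best expressed of each list and the 5 genes of most similar profile.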

Additional observations from a re-analysis of the deposited data

Results flagged for a closer look

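For 20 of the 31 named genes tested, the effect of siMESH1-CDS differed from that of siMESH1-7002 by the edgeR test of the difference in the fit of all 12 libraries, beside 69.7% of all genes, and siRNA and experiment cannot be told apart in it. Values are the siMESH1-CDS minus the siMESH1-7002 log2 fold change in that fit, which scales all 12 libraries together. They need not equal the differences between the changes given above, which come from separate fits. The median difference over all genes was -0.24, and GC-corrected differences are not given here. Positive differences were found for IFIT1 (1.29), IFIT2 (1.00), IFIT3 (0.75), DDX58 (2.18), IFIH1 (0.56), EIF2AK2 (1.41), IFNAR1 (1.22), HERC5 (1.19), JAK1 (0.70), IFNGR2 (0.65) and B2M (0.87). Negative ones were found for IRF9 (-1.27), UBA7 (-4.12), USP18 (-1.64), UBE2L6 (-1.63), SOCS3 (-1.65), LGALS3BP (-3.04) and APOL1 (-1.501). ISG15 (-7.54) and IRF7 (-8.38) had 0 reads with siMESH1-CDS, so these 2 fitted values depend on the prior count and bound nothing. No group of 4 or more libraries was available for a check of single libraries.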

How the results depend on the processing

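For the 9 genes, 340 values kept direction and side of the threshold, 24 fell short of it, 8 crossed it and 1 turned sign (MX1 in the difference test, 0.41 with the GC correction). Members called lower with siMESH1-CDS numbered 4, but 2 with the GC correction, 1 with the GC correction and the replicate block, 2 at a threshold of 0.01, and 2 to 4 without single libraries (2 without any 1 siNT library or siMESH1-CDS replicate 1). Over all genes, 4981 of 13395 were called lower, but 3710, 3248 and 3357 with the correction, with both and at 0.01. Without siNT replicate 1, 2 or 3 the all-gene numbers were 3967, 4104 and 3995. Without siMESH1-CDS replicate 1, 2 or 3 they were 3890, 5390 and 5841, with 13520 to 13642 genes tested in these fits. Replicate numbers did not pair libraries (same-number correlations of deviations -0.058 to 0.195, not always the best match). The replicate block alone left 3 members higher and 4 lower with siMESH1-CDS and 1 higher and 6 lower with siMESH1-7002. Over all genes the block gave 4479 higher and 4794 lower of 13395 with siMESH1-CDS, and 3461 and 3511 of 13568 with siMESH1-7002. With siMESH1-CDS it called IRF1 (-1.84, edgeR adjusted p = 0.0402) and not IFIH1 (0.57, 0.0684). In the 4-group fit, 6 pathway genes were called higher and 8 lower with siMESH1-7002 in place of 20 and 37, and over all genes 1138 and 1444 in place of 3613 and 3622; that fit shares 1 spread over both experiments (biological coefficient of variation 0.196, against 0.299 and 0.0490 alone). With siMESH1-7002 it did not call OAS1 (edgeR adjusted p = 0.343), STAT2 (0.759), IRF1 (0.516), EIF2AK2 (0.105), IFNAR1 (0.0644), UBA7 (0.622), IFNE (0.109), UBE2L6 (0.417) or APOL1 (0.178). The median of all genes with siMESH1-CDS was -0.31 by library size alone and 0.14 with the GC correction, in place of -0.047. Genes called higher and lower with the GC correction were 5236 and 3710 with siMESH1-CDS in place of 4945 and 4981, 5182 and 3294 with siMESH1-7002, and 4574 and 3991 for the difference in place of 4240 and 5626. Low counts limit OASL, OAS2, MX1 and, in experiment 1, ISG15.

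Signs turned for named genes outside the 9 as follows, by log2 change; unless a value shows it, the cause was not tested. With siMESH1-CDS and the GC correction, without and with the replicate block: IRF9 0.87 and 0.82, IFIH1 -0.16 and -0.16, ADAR 0.021 and 0.017, MAVS 0.44 and 0.44 (called higher), UBE2L6 0.17 and 0.14, SOCS3 2.15 and 1.97, LGALS3BP 0.19 and 0.12, ERAP1 -0.53 and -0.53 (called lower). ERAP1 was also at -0.15 by library size alone, -0.072 with at least 10 counts in every library and -0.039 in the 4-group fit. With siMESH1-7002 the same pair of settings gave IRF9 0.12 and 0.11, ADAR 0.048 and 0.048, MAVS 0.074 and 0.074, SOCS3 0.079 and 0.079, and LGALS3BP 0.072 and 0.072. Over all genes the medians in this pair were 0.14 and 0.13 with siMESH1-CDS, and 0.066 and 0.066 with siMESH1-7002. IRF9 with siMESH1-7002 was at 0.0018 with DESeq2 and 0.0077 with no filter on low counts. Without single libraries of experiment 2, IRF9 ranged -0.060 to 0.035, RSAD2 -0.030 to 1.00, MAVS -0.037 to 0.0055 and DDX58 -0.12 to 0.066. Genes not called with all libraries were called with siMESH1-CDS without its replicate 2 (STAT2 0.94, IRF1 -1.06) or 3 (IRF1 -2.30, ADAR -0.38, MAVS -0.49), and with siMESH1-7002 without siNT replicate 3 (JAK1 0.14, IFNGR2 0.10, LGALS3BP -0.10, B2M 0.13, ERAP1 0.10) or 2 (IRF7 0.24, RSAD2 1.00).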
